A study of Oryza sativa with 19 samples.

Results

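The probes described here were the cDNA probes of rice oligonucleotide arrays that stood strongly above all other Nipponbare tissues in root. They were chosen from measured values: a probe was a member when its mean log2 signal in root was at least 4 log2 units above each of shoot, panicle and callus of the same variety, and when it was detected on every root array. Of 33360 probes to full-length cDNA loci, 28949 were detected on every root array, and 220 of these (0.760%) were members. They belonged to 153 of the 20404 loci with such probes. The root level and its distance to the other tissues chose the members, so they are given below as a description with no test.

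Roots anchor the plant, take up water and mineral ions, and load them into the vascular tissue that feeds the shoot. They carry out no photosynthesis, and genes known to act mainly in roots include carriers for nitrate, phosphate, ammonium and silicon, as well as wall proteins and enzymes of defence. Neither the arrays nor the gene table used here pair a probe with a gene function, so each member is named by its locus only, and no role is given to any of them.

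Total RNA of Nipponbare (NB), a japonica rice, and of IR64, an indica rice, was labelled with Cy3 and with Cy5 and hybridised against itself, so both channels of an array held 1 sample. Arrays of 2 designs, S1 and S2, each carried 42034 probes other than controls. NB root, NB shoot, NB callus and IR64 shoot had 2 arrays on each design, and NB panicle had 2 on S1 and 1 on S2. RNA was pooled over plants and each sample was hybridised repeatedly, so the SD and the p-values may cover only the spread between hybridisations.

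The labels place NB roots in diluted Hyponex solution in a growth chamber, for 10 days at 28 °C with 16 h of light. Shoots of both varieties came from soil in a greenhouse under natural light, also at 10 days in the labels, whereas the study's methods describe older seedlings for shoots than for roots. The labels name Trizol for the RNA of IR64 shoot and RNeasy for all NB tissues, and the methods name Trizol for both shoots, so extraction cannot be told apart from variety or tissue. Panicles came from field plants, and were at the late-boot stage by the methods. Callus, a mass of dividing cells here raised from scutellum on a medium with the auxin analogue 2,4-dichlorophenoxyacetic acid, was kept for 28 days at 30 °C with 24 h of light. Tissue and growth condition went together in this design and cannot be told apart. A stronger signal in root is a larger share of root RNA, and more cells with a transcript cannot be told from more transcript per cell.

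Each locus name holds the chromosome, a serial number and the strand, as in R07-00011F, locus 11 on the forward strand of chromosome 7. A name ending in _C marks the probe common to the transcripts of a locus, and a name starting with E5 marks 1 of several further probes laid along some loci. There were 146 members of the first kind and 74 of the second. The S1 array held 97 members at 77 loci and the S2 array 123 members at 91 loci, and 15 loci had members on both designs. No member probe was on both designs.

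Before scaling, the median background-subtracted signal of an array lay between 54.8 and 167 on S1. On S2 it lay between 37.5 and 179, and 66.4% to 88.8% of the probes of an array were detected. The replicate 2 arrays of S2, from 37.5 to 47.9, were the dimmest of that design. All replicate 2 arrays were scanned on 1 day and the replicate 1 arrays on 3 other days. Of those 3 days, 1 held NB shoot, 1 held NB callus and IR64 shoot, and 1 held NB root and NB panicle. The single S2 panicle array therefore shared no scan day with S2 shoot or callus arrays, and differences from them also compare scan days. Signals are given as log2 after scaling to a median of 1000, with a ceiling of 16.61.

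Root levels of the members were high. Their group means ran from 10.67 to 16.61 with a median of 14.89, against a median of 11.74 over all cDNA probes detected on every root array. The same members had median group means of 8.29 in shoot, 8.61 in panicle and 8.67 in callus, where the medians over those cDNA probes were 11.44, 11.75 and 11.75. Every root array lay above every other NB array for all 220 members, as the rule nearly fixes.

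The distance from root to the nearest other NB tissue ran from 4.01 to 9.99 log2 units, with a median of 5.02. It reached 5 in 114 members, 6 in 39, 7 in 16 and 8 in 5. Callus was the nearest tissue for 99 members, shoot for 69 and panicle for 52. For the 23 members detected on no array of these tissues, the nearest tissue only orders readings without detection. The median distance over the cDNA probes detected on every root array was -0.58.

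The highest level outside root, taken as the highest of the 3 group means, had a median of 9.37 and reached 12.56. The ceiling bears on this, because a probe with root at 16.61 could only be a member when all other tissues stayed at 12.61 or below. In 29 members at 21 loci both root arrays were at the ceiling, and in 22 more it was replicate 2 alone. For these 51 members the distance is a lower limit. An array with only 1 channel at the ceiling is not counted here, so distances of other members may be lower limits too. Without the ceiling, R03-00488R_C read 19.02 and 20.40 on the 2 root arrays, and E5_12956 of locus R07-00055F read 19.02 and 20.26. Both probes gave the same value on replicate 1, and 4 members had a spot flagged as saturated on a root array. Such readings may therefore be limits of the scanner rather than measured levels. These values above the ceiling are given only here, and elsewhere members at the ceiling have no order in root.

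Just inside the threshold were R07-00606R_C (4.01), E5_06167 of R08-00599R (4.01) and R01-00386F_C (4.02) on S1, and E5_01905 of R05-00038R (4.01), R07-00288F_C (4.05) and R11-00169F_C (4.05) on S2. Just outside were R06-00023R_C (3.93), R05-00267R_C (3.93) and E5_02517 of R11-00424F (3.90) on S1. On S2 these were E5_03860 of R07-00464F (3.99), R06-00224R_C (3.98) and R03-00372F_C (3.95). Of those outside, the probes of R11-00424F and R07-00464F belonged to loci with another probe inside.

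Among the members of S1, R07-00011F_C had the widest distance, 9.99 log2 units. It read 16.35 and 16.61 on the root arrays, 6.08 and 6.89 on the shoot arrays, 6.03 and 5.97 on the panicle arrays and 5.40 and 6.09 on the callus arrays. It was detected on no array outside root, so that root was at least 433-fold above shoot, 648-fold above panicle and 735-fold above callus. In IR64 shoot it read 6.24 and 6.90, again without detection.

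R06-00472R_C followed with 15.11 and 15.46 in root against 6.10 and 6.92 in shoot, 6.51 and 6.67 in panicle, and 5.37 and 6.56 in callus. It too was detected on no array outside root, which put root at least 189-fold above each of these tissues. R05-00088F_C read 14.75 and 15.65 in root and between 7.18 and 7.66 on the other NB arrays, where only 1 callus array detected it. These 3 probes were thus near background in all other NB tissues alike.

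A second kind of leading member on S1 had a measurable level in callus. R10-00016R_C read 15.27 and 15.94 in root, 8.38 and 9.62 in callus, 6.05 and 6.91 in shoot and 5.92 and 5.80 in panicle, and was detected in callus and root only. R06-00825R_C read 14.19 and 14.59 in root and 7.51 and 8.09 in callus. E5_07246 of R11-00395R read 14.31 and 14.62 in root and 7.49 and 8.27 in callus. Neither of the latter pair was detected on a shoot or panicle array.

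R03-00210R_C, in contrast, read 15.96 and 16.48 in root and between 8.42 and 9.25 on the 6 other NB arrays, with nearly equal levels in all 3 tissues. R08-00029F_C read 15.33 and 15.68 in root, 8.40 and 9.14 in callus and 7.26 to 8.35 in shoot and panicle. R07-00049R_C read 12.91 and 13.19 in root and was detected in no other tissue. The remaining leading locus of S1, R10-00438R, is described with the probes laid along it, as are R07-00055F and R10-00267R, which led on S2.

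On S2, R03-00019R_C led with both root arrays at the ceiling. It read 6.28 and 7.82 in shoot, 6.23 on the single panicle array and 5.88 and 7.20 in callus, with no detection there, which put root at least 375-fold above each. R01-01309R_C read 14.73 and 14.96 in root and 6.35 to 7.15 on the other NB arrays, also without detection, which put root at least 110-fold above each tissue. R11-00052R_C had both root arrays at the ceiling and read 7.09 and 9.12 in shoot, with 1 array of each other NB tissue detected.

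R03-00380F_C read 16.24 and 16.61 in root, 7.46 and 7.68 in shoot, 8.83 in panicle and 7.23 and 8.83 in callus. R08-00632R_C read 15.07 and 16.31 in root and 7.49 to 8.70 elsewhere in NB. Both were low in all other tissues with little order among them. R12-00154F_C had its highest level outside root in callus, and R03-00488R_C in shoot, at 9.83 and 10.13.

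Root replicate 2 read higher than replicate 1 in 77 of the 97 members of S1 (79.4%) and in 103 of the 123 of S2 (83.7%). The remaining members were mostly tied at the ceiling, with 7 on S1 and 4 on S2 higher in replicate 1. Among all detected cDNA probes with a root mean of at least 13 the shares were 74.7% and 78.1%, so this shift was not limited to the members. The median SD between the 2 root arrays over members was 0.25 on S1 and 0.58 on S2. Without root replicate 1 of S2 the rule gave 256 members, and without replicate 2 of S2 it gave 203.

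The members fell into groups by where else they were measured. In 23 members at 23 loci, no shoot, panicle or callus array detected the probe. The lowest of the 3 bounds on root over another tissue ran from at least 7.71-fold in R05-00381R_C to at least 433-fold in R07-00011F_C, with a median of at least 26.4-fold. At the other end, 69 members at 57 loci were detected on every NB array.

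Between these groups, 12 members at 10 loci were detected on every callus array and on no shoot or panicle array. Another 9 members at 6 loci were detected on every panicle array and on no shoot or callus array. Only 2 members were detected on both shoot arrays and on no panicle or callus array. Taking each tissue alone, 82 members were detected on no shoot array, 64 on no panicle array and 39 on no callus array. A dim group with a single array, as panicle on S2, meets either condition more readily than one with 2. The arrays also differed in detection over all probes. On S1 and S2 the callus arrays detected 88.3% and 88.8% in replicate 1, and 81.0% and 67.2% in replicate 2. Shoot arrays of NB detected 66.4% to 81.6%. Whether the counts by detection follow this was not tested, and no such counts over all cDNA probes stand beside them.

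Differences among the other tissues were tested, since the rule set only a ceiling on the highest of shoot, panicle and callus. All differences come from a limma fit with all 5 groups of a design over all detected probes, with Benjamini-Hochberg adjustment over all probes of a design and calls at adjusted p below 0.05. Every member entered this fit through its detection in root, so a call can concern a probe that neither tissue detected: this was so for 2 calls in panicle against shoot (R09-00278R_C and E5_10141), 1 in callus against shoot (R01-00592F_C) and 2 in callus against panicle (R01-00592F_C and R12-00233F_C). Panicle on S2 was 1 array, and a p-value there takes the spread from the other groups and assumes that panicle varies like them. That array shared no scan day with the shoot or callus arrays of S2. With only the groups compared in the fit, no probe of 36114 on S2 was called in either panicle comparison, so each named S2 call with panicle was lost. The first question was whether members differed between panicle and shoot. Of 220 members, 20 at 15 loci were higher and 16 at 15 loci lower in panicle. This was 16.4% of the members, beside 15.9% of all probes tested (9.52% higher and 6.34% lower), and so was near the background. The median difference of members was -0.21 on S1 and -0.28 on S2, beside -0.05 and -0.11 over all probes tested. Here and below, such medians include members that neither tissue detected.

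Among the members higher in panicle, R07-00223R_C read 11.33 on the single S2 panicle array and 7.65 and 8.44 in shoot, where it was not detected. Panicle was at least 9.41-fold brighter (limma, adjusted p = 0.0452), with 1 panicle array, and this call was lost in 10 alternative fits. R03-00671R_C read 9.59 and 9.52 in panicle and 6.05 and 6.97 in shoot, without detection in shoot, so that panicle was at least 3.56-fold brighter (limma, adjusted p = 0.00181). Root still lay 5.14 and 5.07 log2 units above panicle at these probes.

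Locus R08-00599R carried 8 members, and 5 of them were called higher in panicle than in shoot, by 2.02 to 2.79 log2 units. Its S1 members read 8.28 to 9.45 on the panicle arrays and 12.21 to 13.98 on the root arrays. Panicle was the nearest tissue to root for all 8. Since these probes sit within 1 locus they share their source and are not separate cases.

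Lower in panicle than in shoot was R12-00233F_C, at 5.88 on each panicle array and at 10.48 and 10.44 in shoot. It was not detected in panicle, and shoot was at least 9.98-fold brighter (limma, adjusted p = 2.17e-05). R10-00537F_C read 6.12 and 6.40 in panicle without detection and 10.14 and 9.75 in shoot, at least 6.98-fold brighter there (limma, adjusted p = 3.40e-04). R03-00488R_C read 5.78 on the panicle array of S2 and 9.83 and 10.13 in shoot, at least 7.70-fold brighter there against 1 panicle array (limma, adjusted p = 0.0173). In all 3, the shoot level stood apart from the rest outside root, but R03-00488R_C lost its call when either shoot array was left out or when only panicle and shoot entered the fit.

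With the replicate number as a block, 60 members were called in place of 36 (35 higher and 25 lower), beside 31.1% of all probes, and all 36 remained. With each channel scaled to its 75th percentile, 19 were higher and 23 lower, beside 8.96% and 9.04% of all probes. Fewer members were called without panicle replicate 1, panicle replicate 2 or shoot replicate 1 of S1. The share of all probes called fell as well, and each such fit left 1 array in a group. Of the 36 calls 32 were on S1. Their median size was 1.96, and 1.77 within the replicate 2 arrays, scanned on 1 day. Here and below, those arrays are part of the fit that made the calls, so this is no separate check.

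Between callus and shoot, 26 members at 21 loci were higher and 12 at 12 loci lower in callus. This was 17.3% of the members beside 24.4% of all probes tested (13.7% higher and 10.7% lower). The median difference of members was 0.03 on S1 and 0.13 on S2, beside -0.09 and -0.10 over all probes. Thus the share of calls among members was below that of all probes in this comparison. The rule held members at least 4 log2 units below root in both tissues, so they are not like all probes. This difference in share was not tested.

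Locus R07-00288F gave the widest differences towards callus. Its probe E5_08312 on S2 read 11.10 and 11.70 in callus and 6.97 and 7.34 in shoot, where it was not detected, so that callus was at least 10.1-fold brighter (limma, adjusted p = 9.47e-04). Its probe E5_11630 on S1 read 10.10 and 11.18 in callus and 6.07 and 7.08 in shoot, at least 7.57-fold brighter in callus (limma, adjusted p = 2.25e-04). Of 6 members at this locus 4 were called higher in callus, by 1.74 to 4.24 log2 units, and 5 of the 6 had both root arrays at the ceiling.

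R01-00386F_C read 10.10 and 11.72 in callus and 7.04 and 6.87 in shoot, without detection in shoot, at least 9.08-fold brighter in callus (limma, adjusted p = 4.59e-04). It stood only 4.02 log2 units below root there. In the other direction, R03-01125R_C read 8.06 and 8.97 in callus and 11.57 and 11.15 in shoot, a difference of -2.85 ± 0.44 (SE; limma, adjusted p = 0.00105). R12-00233F_C and R03-00488R_C were again brighter in shoot, by at least 8.85-fold and 5.83-fold (limma, adjusted p = 1.16e-04 and 0.00574). The call of R03-00488R_C was lost without shoot replicate 2 of S2.

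With the replicate block 78 members were called in place of 38 (55 higher and 23 lower), beside 41.4% of all probes. With the scan day as a block 63 were called beside 37.5% of all probes, and after quantile normalization 58 beside 28.0%. When only callus and shoot entered the fit 20 were called beside 15.5%. The median size of the difference over the 38 calls was 2.03, and 2.20 within the replicate 2 arrays, which share 1 scan day.

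Between callus and panicle, 23 members at 20 loci were higher and 16 at 14 loci lower in callus. This was 17.7% of the members beside 10.8% of all probes tested (4.16% higher and 6.60% lower). The median difference of members was 0.35 on S1 and 0.48 on S2, beside 0.05 and 0.08 over all probes tested. The share was above that of all probes here, but after normexp correction it was below, with 23 members (10.5%) beside 14.8% of all probes. The difference in share was not tested, and the rule bounded members in both tissues here too.

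R04-00440F_C on S2 read 10.02 and 11.25 in callus and 6.16 on the panicle array without detection, at least 12.1-fold brighter in callus against 1 panicle array (limma, adjusted p = 0.0212). On S1, R10-00016R_C and R04-00035R_C were not detected in panicle, and callus was at least 3.62-fold and 4.35-fold brighter (limma, adjusted p = 0.00152 and 2.66e-04). Of the 3, R04-00440F_C lost its call in 5 alternative fits, among them those without callus replicate 2 or either shoot replicate of S2.

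In the other direction R07-00223R_C read 6.54 and 7.38 in callus without detection and 11.33 in panicle, at least 14.6-fold brighter in panicle (limma, adjusted p = 0.0167). R04-00324R_C read 6.82 and 7.21 in callus without detection and 11.05 in panicle, at least 10.9-fold brighter (limma, adjusted p = 0.0132). R08-00617F_C read 5.65 and 5.98 in callus without detection, and 9.80 and 9.77 in panicle, at least 7.09-fold brighter there (limma, adjusted p = 3.13e-04). The first of them lost its call without callus replicate 1 of S2, and it and R04-00324R_C, which rest on a single panicle array, both lost theirs when only callus and panicle entered the fit.

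With the replicate block 67 members were called in place of 39 (37 higher and 30 lower), beside 19.7% of all probes. When only callus and panicle entered the fit 10 were called, beside 3.65% of all probes. Without callus replicate 2, panicle replicate 1 or panicle replicate 2 of S1, fewer members were called. All probes gave a smaller share of calls too, and each such fit left 1 array in a group. Only 3 of the 39 calls were on S2, where panicle had 1 array. Over the 36 calls of S1 the median size was 1.78, and 1.80 within the replicate 2 arrays.

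IR64 shoot was not used by the rule and gives a view of the members in a second variety. Its mean was at least 4 log2 units below NB root in 210 of 220 members, and in 132 after normexp correction. This distance uses the root level that chose the members and is a description. The other 10 were 3.24 to 3.96 below, and the smallest distance was that of R12-00438F_C, at 13.07 and 13.67 in IR64 shoot, 11.95 and 12.21 in NB shoot and at the ceiling in both root arrays. No IR64 root was measured, so these values show low levels in IR64 shoot, not root specificity in IR64.

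The shoots of both varieties were close over the members. IR64 minus NB shoot had a median of 0.09, beside -0.04 over detected cDNA probes, and 205 members lay within 1 log2 unit. No IR64 shoot array detected 85 members, and no NB shoot array 82. In the limma fit 2 members were called, both lower in IR64 and none higher, which is 0.909% of the members beside 1.72% of all probes tested (0.380% higher and 1.34% lower).

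These 2 were R12-00233F_C and R10-00537F_C, which were also lower in panicle than in NB shoot. The former read 6.32 and 6.81 in IR64 shoot without detection against 10.48 and 10.44 in NB shoot, at least 6.28-fold brighter in NB (limma, adjusted p = 3.71e-04). The latter read 6.64 and 7.09 without detection against 10.14 and 9.75, at least 4.39-fold brighter in NB (limma, adjusted p = 0.00483). Among NB tissues and IR64 shoot, R12-00233F_C was thus detected in NB root and NB shoot alone.

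The call of R10-00537F_C was lost without IR64 shoot replicate 1 or NB shoot replicate 1 of S1, each of which left 1 call. With each channel scaled to its 75th percentile 1 member was higher and 2 lower, beside 1.96% of all probes called. After quantile normalization 1 was higher and 4 lower, beside 2.58%. With the replicate block 9 members were called (4 higher and 5 lower in IR64), beside 4.14% of all probes. R02-00765R_C was among the 4, at 10.83 in IR64 shoot and 8.60 in NB shoot as group means (limma with the block, adjusted p = 0.00639; without it 0.106). Probes were designed on NB sequence, and the part of mismatches in the IR64 signal was not tested.

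Probes laid along a locus gave a view of how far the root signal held within it. Of the 153 loci 126 had 1 cDNA probe and 27 had more. Those 27 carried 161 probes, of which 94 were members. The number that ends the locus label listed with each probe, not the probe's own name, is taken here as its position along the locus sequence. The files do not define this number. Neighbouring probes often overlap, so they share sequence and are no independent support for a locus. The signal of a probe depends on its own affinity, so levels are read only between tissues at 1 probe and never between probes. Where root was at the ceiling, the distance of any probe is a lower limit.

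The 67 probes at these loci that were not members still tended to stand above the other tissues in root. Their distance from root to the nearest tissue ran from -0.65 to 3.99 with a median of 2.24, was at least 1 in 51 and at least 2 in 39. Over all 18196 cDNA probes of loci with several probes the median was -0.61, and 5.23% reached 1. The rule removed the probes at 4 or more from this set, and the members and these probes share their arrays.

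At 8 of the 27 loci every probe was a member. R03-00015F had 6, at positions 11 to 553 on both designs, with distances from 4.90 to 5.73. R07-00288F had 6, at positions 446 to 552, with distances from 4.05 to 5.60. R07-00055F had 5, and of these E5_01173 at position 71 reached 8.82 while E5_12956 at position 562 reached 4.76. The last was at the ceiling in root, which makes its distance a lower limit, and read 11.62 and 12.08 in callus, whereas E5_01173 read 6.96 and 7.23 in callus without detection.

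At R10-00438R 8 of 9 probes were members. The distances of the probes at positions 447, 457 and 467 were 7.64, 7.38 and 7.48, and those at 491, 501, 511 and 521 were 5.21, 5.28, 5.11 and 4.44. The latter were at or next to the ceiling in root, with 10.11 to 12.17 as group means in the other NB tissues, so their distances are lower limits and were not set against those of the former.

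R04-00828R was at the edge of the rule along its whole set, with the ceiling applied. Its 10 probes, at positions 470 to 516, had root means from 16.10 to 16.57 and distances from 3.41 to 4.03, and only E5_09187 at position 470 was a member. R07-00464F also had 10 probes and 1 member, with distances spread more widely, from 1.42 to 4.54.

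Other loci held members and probes with a short distance. At R05-00714F the 3 members at positions 1, 21 and 47 read 13.35, 13.52 and 14.08 in root and 9.26, 9.22 and 9.57 in panicle as group means. The 7 probes at positions 385 to 546 were at the ceiling in root and read 13.76 to 16.00 in panicle, with distances of at least 0.61 to at least 2.85. At each of these 7, panicle was above shoot and callus, which read 9.36 to 13.48. Since the ceiling bounds these distances, they do not show that root stood out less there than at the 3 members.

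At R07-00059F the probe at position 377 read 15.43 in root and 9.77 in shoot, and was a member at 5.66. The probes at positions 2, 25 and 45 read 9.19, 8.87 and 8.12 in root and had distances of -0.17, -0.14 and 0.23. The probe at position 555 read 13.87 in root and had a distance of 3.20. This member was on S2 and the other 4 probes on S1, so position and design cannot be told apart. At R10-00267R the members at positions 303, 480 and 602 had distances of 7.90, 6.94 and 7.35, while those at positions 1, 22 and 59 had 0.91, 0.83 and 0.28. Its probe at position 460, on S1, read 13.46 in callus and had a distance of 2.11.

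At R09-00124R the members lay at positions 447, 496 and 537, with distances of 4.23, 5.68 and 6.03, and the 4 probes at positions 252 to 407 had 0.89 to 2.24. At R12-00393R the 4 probes at positions 304 to 335 had distances of 1.92 to 3.39 and the 6 at positions 340 to 388 had 4.36 to 6.04. Root group means were between 14.81 and 16.31 at these 10 probes. The other NB tissues read 11.59 to 13.65 at the first 4 and 8.08 to 11.96 at the last 6, and which tissue sets the difference in distance cannot be told from levels of different probes. Whether other transcripts, other copies of the sequence or probe quality move with these differences was not tested.

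A further 5 probes at member loci were designed to 1 transcript variant each, and the rule did not consider them. R09-00471F_S1 read 14.19 in root as a group mean, 4.97 above the nearest tissue, and R01-01101F_S1 read 13.54, 4.02 above. R05-00585R_S1 was 2.17 above. R10-00111R_S1 and R04-00440F_S1 had 0.04 and -0.63, while the common probe of each locus was a member. Over all 4076 such probes of loci with several probes the median was -0.52, and 2.67% reached 1.

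The designs can also be set against each other at the 15 loci with members on both. Their median distances on S1 and S2 differed by 0.66 in the median locus and by at most 2.18, at R10-00438R, and in 4 loci by 1 or more. The probes differ in position between the designs, so this is a comparison of probes as well as of arrays.

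Member loci were spread over all 12 chromosomes. Chromosome 10 had 14 among its 1060 loci (1.32%) and chromosome 6 had 5 among 1614 (0.310%), beside 0.750% over all loci. On the same strand, 26 of the 153 member loci (17.0%) had another member locus within 10 serial numbers, in 11 groups. Of the other loci 13.5% had a member locus so near, and within 20 numbers the shares were 26.1% and 25.1%.

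The longest group was R08-00160F to R08-00163F, 4 loci in a row on the forward strand of chromosome 8 with 7 members. Root group means of these members ran from 13.02 to 15.56, and their distances from 4.04 to 5.74. R08-00160F_C read 14.18 and 14.74 in root and 6.31 and 7.29 in shoot. The loci next to the group, R08-00159F and R08-00164F, had no member, with distances of 2.90 and 0.07 at their common probes.

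R10-00436R, R10-00438R and R10-00447R formed a group on chromosome 10. The locus between the first pair, R10-00437R, had 9 probes, all at the ceiling in root, but read 14.28 to 14.95 in shoot and was therefore no member locus, with distances of at least 1.66 to at least 2.33. R02-00765R, R02-00773R and R02-00782R made up the third group of 3 or more in a span of 18 loci of the arrays. R02-00765R_C and R02-00782R_C had both root arrays at the ceiling.

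R05-00264R and R05-00270R were a further pair, and between them R05-00267R_C lay just under the threshold at 3.93. Pairs of direct neighbours were R03-00014F with R03-00015F, R03-00670R with R03-00671R, R10-00463F with R10-00464F, and R07-00055F with R07-00059F, each with no other locus of the arrays between them. The serial numbers give order only and no distance in bases. Nearness of 2 loci in this count does not show that they are copies of each other, and no sequence was compared.

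The size of the set moved with background correction. After normexp correction with an offset of 50 and normalization within and between arrays, 114 probes met the rule, of which 104 were among the 220. All other processing alternatives gave 210 to 235 members, of which 207 to 220 were shared.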

How the data were processed

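Transcript levels were measured on 19 self-hybridised Agilent arrays (10 of design S1, 9 of S2), with groups and replicate numbers from the sample titles. Per the file headers, the authors made the deposited intensity values with Feature Extraction 8.1.1.1, as processed signal per channel, background-subtracted and dye-normalized within the array. A spot was well above background when it differed at p 0.01 and exceeded 2.6 SD of the background. Other deposited columns used here hold flags per spot (0 or 1), probe names and locus labels. The deposited series-wide table holds log ratios of both channels and was not used.

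As in the study's methods, each channel was scaled to a median of 1000 and capped at 100000. Log2 was then taken and both channels were averaged. Detection of a probe on an array required both channels to be well above background. A bound written "at least N-fold" divides the bright group's mean by the dim group's limit, which on each array is the lowest signal of any detected probe, or the dim probe's signal if that is larger. limma 3.58.1 in R 4.3.3 (lmFit, eBayes, two-sided, all 5 groups of a design, outlier spots left out) tested probes detected in at least 1 group, with steps in Python 3.11.15, and the fit was tested on simulated data. Intervals rest on 2 arrays per group at most.

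Replicate numbers relate the arrays in part. Differences between replicates 1 and 2 correlated across tissues at 0.11 to 0.64 on S1 and 0.55 to 0.83 on S2. Replicate 2 marks a shared scan day, whereas replicate 1 arrays of different tissues were spread over other days. The main fit leaves this relation out, and the replicate block is an alternative. Named members were those with the widest distance per design, those at the threshold, up to 3 calls per comparison and direction with the widest difference and no overlap, grouped neighbours, loci on both designs, those with extreme companion probes and the brightest. Probes named for another reason were chosen after their values were seen. Members and lists were chosen with earlier results of these data known. Lists of root genes and tissue markers could not be applied, as no table used here pairs probes with genes, so the labelled tissues were not checked against markers. Probe letters are masked in the files used here, so none are shown.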

Additional observations from a re-analysis of the deposited data

How the results depend on the processing

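Normexp correction left 114 members in place of 220, and 132 in place of 210 with IR64 shoot at least 4 below root. It left 23 calls between callus and panicle, beside 14.8% of all probes. Calls in panicle against shoot, callus against shoot, callus against panicle and IR64 against NB shoot numbered 36, 38, 39 and 2. Over all probes the shares called were 15.9%, 24.4%, 10.8% and 1.72%. With the replicate block the members called numbered 60, 78, 67 and 9, beside 31.1%, 41.4%, 19.7% and 4.14% of all probes. Every call made without the block remained. With the scan day as a block, 63 were called in callus against shoot and 4 in IR64 against NB shoot, beside 37.5% and 1.70% of all probes. Quantile normalization gave 58 and 5, beside 28.0% and 2.58%. With only the groups compared in the fit, callus against shoot gave 20, callus against panicle 10 and IR64 against NB shoot 1. The shares of all probes were 15.5%, 3.65% and 0.179%. Leaving out each array in turn gave 17 to 38, 28 to 45, 18 to 39 and 1 to 3 calls, 202 to 256 members, and 204 to 215 members with IR64 shoot at least 4 below root. The only panicle array of S2 could not be left out of results that need it. No call had the other sign under any setting run, but R08-00162F_C, called in panicle against shoot, had no value without shoot replicate 1 of S1, since its spot on the other shoot array was an outlier.

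At a threshold of 4 in place of 1, 0 of the other cDNA probes of member loci stood above the other tissues, as the rule fixes. Within 5 or 20 serial numbers, 14 and 40 member loci had another nearby. For members named by the rule, 383 of 408 alternative values of calls stayed past the threshold and 25 did not. The 408 include settings that leave out arrays of groups outside a comparison, and 20 values with outlier spots kept, all past the threshold. These calls were also chosen as the widest, so the 408 do not measure how stable calls are. Of the distances to the nearest tissue, 591 of 840 under other processing stayed within 1 SD of the root replicates, and normexp moved 111 of 120 by more. The 840 include 120 values with outlier spots left out, all within that SD. Only 1 member had an outlier spot on any array, so that setting could hardly move a distance and tests little. Leaving out a shoot, panicle or callus array kept 471 of 594 within the SD. This SD does not cover the spread in the other tissues. It also shows no spread where every root array was at the ceiling, so these counts do not measure how stable the distances are. Keeping outlier spots in the fit and leaving them out of the rule, and the repeats of the IR64 count, were chosen after seeing the data. A random block for slide or scan was not run, and 1 scan day held NB shoot alone. Signal over background limits 23 members to bounds in every other NB tissue, and the causes of these changes were not tested.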
